A study of Homo sapiens with 16 samples.

Results

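The genes described here are small nuclear RNAs (snRNA) and miscellaneous structured RNAs (misc_RNA) that were counted in IMR32 cells. They were chosen from the gene table by 2 conditions, a biotype of snRNA or misc_RNA and a mean of at least 5 raw counts over the 16 libraries. Of 4130 genes with these biotypes, among 58735 genes in all, 303 met the second condition, 120 of them snRNA and 183 misc_RNA. The other genes of the class divided into 2078 with no count in any library and 1749 with counts below the mean of 5. The threshold fell between genes of almost equal level: RNU6-62P and RNU6-1178P, with mean counts of 5.0, were inside, and ENSG00000200351 and ENSG00000275586, with mean counts of 4.94, were outside. The mean count that chose the members runs over all 4 treatments, so the levels given below are a description of the choice. Since 12 of the 16 libraries were drug treated, a higher level under the drugs could bring a gene past the mean of 5.

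IMR32 is a human neuroblastoma line with amplified MYCN. The cells were held for 24 h in 4 conditions with 4 libraries each: the combination of 4 µM alectinib with 1.25 µM indisulam, 4 µM alectinib alone, 1.25 µM indisulam alone, and the vehicle DMSO. Alectinib blocks the kinase activity of ALK, and indisulam, an aryl sulfonamide, brings RBM39, a splicing factor, to the DCAF15 ubiquitin ligase for degradation. The study asks whether the 2 drugs act together on RNA splicing. The libraries were made from polyadenylated RNA, whereas the mature RNAs of these families carry no poly(A) tail. All 4 conditions come from a single cell line, and the labels do not say that the libraries of a condition came from separate cultures, so the p-values measure only how these libraries vary, and that variation may be technical. Libraries held between 55.1 and 63.7 M counts (M, mega), with 90.2 M in alectinib replicate 1. Levels are given in CPM, the count per mega-count of the library, in which 1 count equals between 0.0106 and 0.018 CPM. RBM39 transcripts, which do not report on the degraded protein, were higher by 1.44 ± 0.06 (log2, ± standard error) in the combination, 0.42 ± 0.06 in alectinib and 0.97 ± 0.06 in indisulam than in DMSO. Counts are relative to a library's total, so fewer cells and less RNA per cell cannot be told apart.

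Most of these families work as the RNA core of a particle. U1, U2, U4, U5 and U6 form the major spliceosome with Sm or LSm proteins, U11, U12, U4atac and U6atac serve the minor spliceosome, and U7 guides the trimming of histone mRNA ends. The 7SK RNA holds the elongation kinase P-TEFb in an inactive state, 7SL is the scaffold of the signal recognition particle (SRP) that brings nascent secreted proteins to the endoplasmic reticulum, and Y RNAs bind the Ro protein. RNA polymerase III makes U6, U6atac, 7SK, 7SL and the Y RNAs, and RNA polymerase II makes the others. The human genome carries many retrotransposed copies of 7SL, 7SK, Y and U6 RNAs. These copies are annotated as genes of their own, and many lie inside introns.

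The 7SL genes held most of the counts. RN7SL2 lies in an intron of AL627171.2 and RN7SL3 in no other gene, and RN7SL4P and RN7SL5P are copies in introns of ANKRD28 and PTPRD, opposite to these genes. Identity to RN7SL2 was 96.0% for RN7SL3, 86.7% for RN7SL4P and 85.2% for RN7SL5P. Reads of 150 bases can match several of these genes. How such reads were counted is not given in the sources used here, and the split of counts among them is uncertain.

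The U6 family is represented by 3 copies whose levels differed between treatments. Sequences are those of GENCODE 29 transcripts on GRCh38. The copies are RNU6-341P (chr14:58292293-58292388, minus strand, intron of PSMA3-AS1), RNU6-322P (chr15:100551820-100551922, minus strand, in no other gene) and ENSG00000283418 (chr3:139388277-139388364, plus strand, intron of COPB2 on the opposite strand). They were searched for ACAGAGA, the box of U6 that pairs with the 5′ splice site, which would stand in capitals.
RNU6-341P: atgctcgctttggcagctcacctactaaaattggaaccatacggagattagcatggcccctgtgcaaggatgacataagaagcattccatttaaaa
RNU6-322P: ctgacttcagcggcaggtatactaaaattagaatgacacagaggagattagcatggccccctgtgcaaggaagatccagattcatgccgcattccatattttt
ENSG00000283418: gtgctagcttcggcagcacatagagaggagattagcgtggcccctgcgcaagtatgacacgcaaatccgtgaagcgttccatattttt
None of the 3 copies shown holds the box. Over all U6 members, 44 of 84 (52.4%) held ACAGAGA on their own strand, against 660 of 1226 (53.8%) U6 genes that are not members, and 0 members held it on the other strand. Identity of the U6 members to RNU6-1 was between 63.4 and 99.1%, with a median of 80.8%.

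Copies of Y RNA and U2 with large differences are shown next. In ENSG00000252652 (chr11:43331261-43331356, plus strand, intron of API5) capitals mark differences from RNY4. In ENSG00000207525 (chr16:74463888-74463988, minus strand, intron of GLG1) they mark differences from RNY3. RNU2-37P (chr3:128075073-128075249, minus strand, intron of RUVBL1) was searched for GTAGTA, the stretch of U2 that pairs with the branch site, which would stand in capitals.
ENSG00000252652: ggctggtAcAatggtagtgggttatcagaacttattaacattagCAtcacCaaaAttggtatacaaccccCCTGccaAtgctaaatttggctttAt
ENSG00000207525: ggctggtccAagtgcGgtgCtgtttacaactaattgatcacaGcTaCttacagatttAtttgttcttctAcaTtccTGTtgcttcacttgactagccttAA
RNU2-37P: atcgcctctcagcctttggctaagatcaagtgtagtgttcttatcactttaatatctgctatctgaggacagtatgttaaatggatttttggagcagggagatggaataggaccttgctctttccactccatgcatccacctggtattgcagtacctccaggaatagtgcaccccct
RNU2-37P was 85.9% identical to RNU2-1 and held no GTAGTA, which 8 of 9 U2 members (88.9%) and 45 of 81 other U2 genes (55.6%) held on their own strand. ENSG00000252652 had 8 substitutions and 8 gap bases against RNY4, an identity of 84.0%, and ENSG00000207525 had 14 substitutions and 1 gap base against RNY3, an identity of 85.3%. Median identity to the closest functional gene of the family was 79.6% for the 85 7SL members, taken against RN7SL1, and 85.7% for the 73 Y members.

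The members were few of the counts and mostly copies rather than the functional genes. Together they held between 0.0255 and 0.0851% of a library, and RN7SL2 alone made up 67.5 to 87.4% of the member counts. The median of the members' mean counts was 10.62, with 137 members under a mean of 10, 64 at 20 or more and 7 at 100 or more. The largest families were 7SL with 85 members, U6 with 84 and Y with 73. They were followed by 7SK with 16, U2 with 9, U1 with 8, U7 with 6, U4 with 5, U6atac with 4, U4atac with 2, and U5 and U12 with 1 each. A further 9 fell in none of these families. Per length, RN7SL2 averaged 1123 CPM per kb over all libraries, RN7SL4P averaged 26.8 and RN7SL5P 13.2 CPM per kb.

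Of 43 functional genes of these families in the table, 5 were members, 20 were counted below the mean of 5, and 18 were listed at 0 in all 16 libraries. The 18 included RN7SK, RN7SL1, RNU2-1, RNU6-1, RNU7-1, RNU11, RNU12, RNY3 and RNY4. RN7SL1 is 98.3% identical to RN7SL2, and the 2 genes stood at mean counts of 0 and 20104. An exon shared with another annotated gene was found for 10 of the 43 functional genes and for 8 of the 18 at 0. Examples are RNU2-2P in an exon of WDR74, which had a mean count of 2509, and RNU7-1 in an exon of C12orf57, which had a mean count of 2428.5. RN7SL1 shares an exon with AL139099.4 and RN7SK with RF00100, and both of these partners were also listed at 0. A value of 0 here therefore does not show that a gene was silent.

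The 3 functional genes other than RN7SL2 and RN7SL3 that reached the mean of 5 had few counts in any library. RNU6-8 had 0.14, 0.177, 0.35 and 0.157 CPM in the combination, 0.149, 0.166, 0.114 and 0.171 CPM in alectinib, 0.145, 0.162, 0.198 and 0.226 CPM in indisulam, and 0.157, 0.198, 0.089 and 0.139 CPM in DMSO. All treatments overlapped with DMSO, and the log2 fold changes were 0.50 ± 0.46 in the combination, 0.04 ± 0.46 in alectinib and 0.32 ± 0.46 in indisulam, none of them called. RNU4ATAC, the U4atac gene of the minor spliceosome, and RNVU1-15, a variant U1 gene, did not pass the expression filter. RNU4ATAC averaged 0.159 ± 0.087 CPM in the combination, 0.107 ± 0.0295 in alectinib, 0.076 ± 0.0504 in indisulam and 0.0793 ± 0.074 in DMSO (SD, n = 4 each). RNVU1-15 averaged 0.0906 ± 0.0239 CPM in the combination, 0.0702 ± 0.0426 in alectinib, 0.11 ± 0.0432 in indisulam and 0.0662 ± 0.0522 in DMSO (SD, n = 4 each). The libraries of both genes overlapped between all conditions.

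Members sat mainly inside introns of other genes. Of the 303, 163 lay in an intron of a gene on the same strand and 92 only in introns of genes on the opposite strand, together 84.2%. Another 40 lay in no other gene, 7 shared an exon with a gene on the same strand and 1 with a gene on the opposite strand. Among all genes of the class, 11.2% of the 2269 intronic ones were members, against 2.6% of those in no other gene and 2.3% of the 342 that share an exon. Whether the counting used strand is not given in the sources used here, so reads from a member and from the gene that contains it, on either strand, cannot be told apart. The 262 members inside a gene had 248 distinct hosts, and 11 hosts held more than 1 member.

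Against DMSO, many more members were higher than lower in the combination and in indisulam, and few differed in alectinib. Of the 303 members, 231 passed the expression filter and 72 did not. In the combination, 83 of the 231 were called higher and 8 lower (adjusted p under 0.05, quasi-likelihood test of edgeR), where 29.7% of all 22433 tested genes were called higher and 30.6% lower. In alectinib, 14 were higher and 1 lower, against 9.99% and 12.3% of all tested genes. In indisulam, 79 were higher and 6 lower, against 23.0% and 24.8%. As shares of the tested members, the calls were 35.9% higher and 3.5% lower in the combination, 6.1% and 0.4% in alectinib, and 34.2% and 2.6% in indisulam. The share called higher was thus above the background in the combination and in indisulam and below it in alectinib, and the share called lower was below the background in all 3 comparisons. The median log2 fold change of the tested members was 0.64 in the combination, 0.25 in alectinib and 0.72 in indisulam, and that of all tested genes was 0.01, 0.01 and -0.01. The 14 higher calls in alectinib numbered 8 without alectinib replicate 1 and 9 without alectinib replicate 3, and the 6 lower calls in indisulam numbered 11 without DMSO replicate 2. The 3 comparisons share the DMSO libraries.

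Passing the filter was itself tied to treatment. It asks for about 0.17 CPM in 4 libraries, and among the 231 members, 185 had at least 2 combination libraries at that level, 148 alectinib, 187 indisulam and 116 DMSO. Members with 0 libraries at that level numbered 14 in the combination, 41 in alectinib, 14 in indisulam and 57 in DMSO, and those 57 passed through treated libraries alone. Without the filter, all 303 members were fitted among 40862 genes, which were all genes with a count in any library. The members had a mean of at least 5 counts, so the members and all genes are not at like levels. The combination then had 78 members higher and 9 lower (25.7% and 3.0%), against 17.1% and 17.4% of all genes. Alectinib had 13 and 4 (4.3% and 1.3%), against 5.37% and 6.83%. Indisulam had 75 and 8 (24.8% and 2.6%), against 12.4% and 13.9%. Against alectinib the combination had 66 and 11 (21.8% and 3.6%), where 14.5% and 16.4% of all genes were called. Against indisulam it had 7 and 6 (2.3% and 2.0%), where 10.3% and 11.1% were called. The interaction, defined further on, had 4 and 1 (1.3% and 0.3%), against 3.83% and 3.88%. Over all 303 members, with no test, the mean CPM was higher than in DMSO for 218 in the combination, 192 in alectinib and 214 in indisulam. The same count over all genes is not given here. The mean of 5 could itself let in genes that were higher under the drugs, so these counts do not by themselves show a rise. RN7SL152P, a 7SL copy in no other gene, was tested although all 4 DMSO libraries had 0 counts. It passed the filter through treated libraries alone, and it was named after its values were seen. An assumed floor of 3 counts over the 4 DMSO libraries was set in place of the 0. Its mean of 0.226 CPM in the combination was 17.4-fold above that floor, and its mean of 0.152 CPM in indisulam 11.7-fold. These ratios depend on the floor chosen. With the member's DMSO level at that floor, the medians of all tested members stayed at 0.64 and 0.72.

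**Figure D1:**
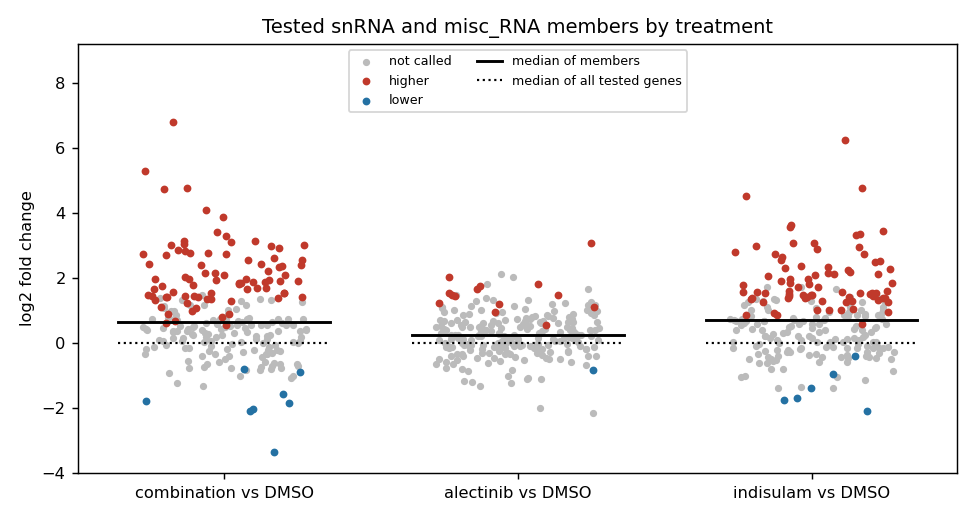
Log2 fold change against DMSO (vertical axis) of the 231 tested members in the combination, alectinib and indisulam. Each point is a member, in red where called higher, blue where called lower and grey otherwise; solid lines are the medians of the members, 0.64, 0.25 and 0.72, and dotted lines those of all tested genes, which lie near 0.

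With RN7SL2, RN7SL3, RN7SL4P and RN7SL5P left out, the summed level of the members was higher in the combination and in indisulam than in DMSO. The other members summed to between 77.72 and 105.19 CPM in the combination, 61.45 and 74.63 CPM in alectinib, 80.9 and 100.53 CPM in indisulam, and 52.51 and 63.96 CPM in DMSO. The combination and indisulam libraries all lay above the DMSO libraries, and the alectinib libraries overlapped with them. Group means were 90.56 ± 12.54, 68.21 ± 5.45 and 90.84 ± 8.16 CPM in the combination, alectinib and indisulam, and 56.52 ± 5.22 CPM in DMSO (SD, n = 4 each). By position, the members in introns of same-strand genes summed to between 44.05 and 60.44 CPM in the combination, 31.02 and 37.86 in alectinib, 43.47 and 55.17 in indisulam, and 26.27 and 33.38 in DMSO.

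RN7SL2 and RN7SL3, which encode the scaffold RNA of the SRP, had their highest mean level in the combination and their lowest in alectinib. RN7SL2 had 434, 410, 353 and 751 CPM in the combination, 199.9, 348, 215 and 177 CPM in alectinib, 246, 348, 280.1 and 287 CPM in indisulam, and 336, 475, 193 and 337 CPM in DMSO. Combination replicate 4 stood far above the rest, and the DMSO libraries overlapped with every treatment. The log2 fold change was 0.54 ± 0.23 in the combination (adjusted p = 0.0448), -0.51 ± 0.23 in alectinib (adjusted p = 0.112) and -0.21 ± 0.23 in indisulam (adjusted p = 0.481). The call in the combination depended on single libraries. Without combination replicate 4 the log2 fold change was 0.25 (adjusted p = 0.319), without DMSO replicate 3 it was 0.37 (adjusted p = 0.15), and the call was also lost without DMSO replicate 1 or 4, alectinib replicate 3, or indisulam replicate 3 or 4, and by DESeq2.

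RN7SL3 had 5.88, 5.22, 4.68 and 9.74 CPM in the combination, 2.21, 2.77, 2.25 and 2.17 CPM in alectinib, 4.29, 5.51, 5.55 and 4.77 CPM in indisulam, and 3.76, 5.73, 3.60 and 3.69 CPM in DMSO. All 4 alectinib libraries lay below all others, while the combination overlapped with DMSO through DMSO replicate 2. RN7SL3 fell in alectinib by 0.84 ± 0.20 (log2, adjusted p = 0.00362), the only member called lower there, and rose by 0.61 ± 0.19 in the combination (adjusted p = 0.00909). Without combination replicate 4 that rise was 0.33 (adjusted p = 0.0987). In indisulam it was higher by 0.26 ± 0.19, which was not called.

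Set against the single drugs, RN7SL2 was higher in the combination than in alectinib by 1.05 ± 0.23 (adjusted p = 4.2e-04) and RN7SL3 by 1.44 ± 0.20 (adjusted p = 1.31e-06), and for both the 2 conditions did not overlap. RN7SL2 was higher in the combination than in indisulam by 0.75 ± 0.23 (adjusted p = 0.0117), or 0.46 (adjusted p = 0.0941) without combination replicate 4. Both had positive interactions, the log2 change in the combination minus both single-drug changes. The interaction was 1.26 ± 0.32 for RN7SL2 (adjusted p = 0.0113) and 1.18 ± 0.28 for RN7SL3 (adjusted p = 0.00601), both called in every alternative fit, with ranges of 0.97 to 1.51 and 0.90 to 1.30.

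The pseudogene copies RN7SL4P and RN7SL5P varied mainly between libraries of a condition. RN7SL4P had 7.23, 8.92, 7.21 and 10.9 CPM in the combination, 5.59, 10.7, 5.63 and 5.14 CPM in alectinib, 7.60, 6.20, 10.3 and 7.17 CPM in indisulam, and 6.67, 14.1, 8.85 and 4.61 CPM in DMSO. RN7SL5P had 0.211, 5.08, 5.05 and 4.68 CPM in the combination, 1.43, 0.232, 3.68 and 0.202 CPM in alectinib, 13.8, 0.252, 4.59 and 3.59 CPM in indisulam, and 7.34, 12.9, 1.98 and 2.61 CPM in DMSO. Its counts ran from 12 to 854 in a library, and 4 libraries of 3 drug conditions stood near 0.2 CPM. No comparison of either copy with DMSO was called. DMSO replicate 2 was the highest DMSO library for all 4 of these 7SL genes.

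**Figure D2:**
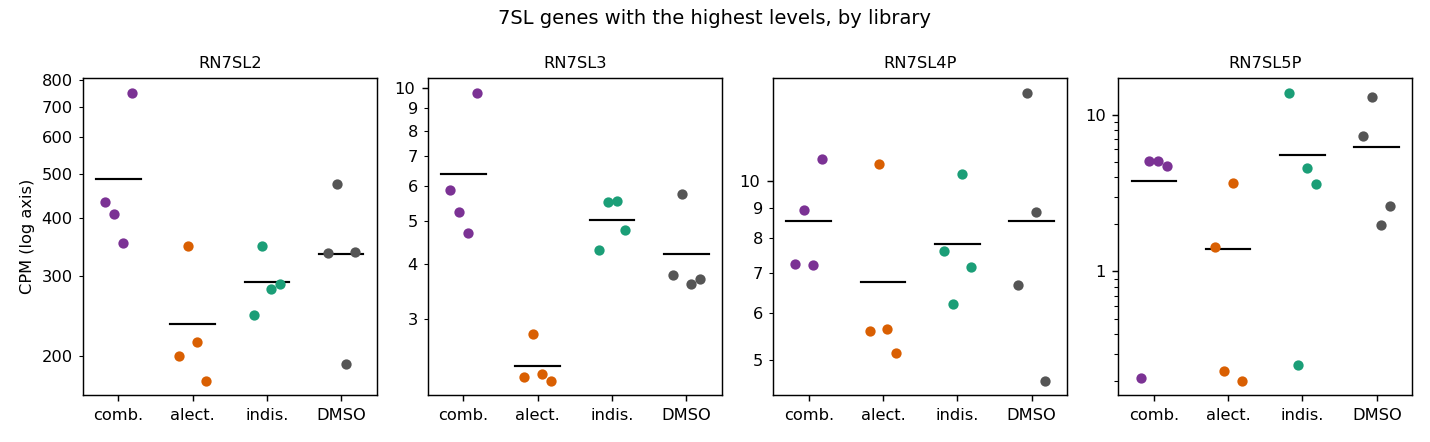
CPM (log axis) of RN7SL2, RN7SL3, RN7SL4P and RN7SL5P in the 4 libraries of each condition, with the condition mean as a bar and no error drawn; comb., alect. and indis. stand for the combination, alectinib and indisulam. RN7SL3 lies lowest in alectinib, at 2.17 to 2.77 CPM, and RN7SL5P spreads widely within each condition.

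The remaining 7SL members followed the overall direction. Of 70 tested 7SL members, RN7SL2 and RN7SL3 included, 31 were higher and 1 lower in the combination, 7 and 1 in alectinib, and 25 and 1 in indisulam, with median log2 fold changes of 0.98, 0.28 and 0.74. The share called higher was 44.3% in the combination, against 29.7% of all tested genes, 10.0% in alectinib, against 9.99%, and 35.7% in indisulam, against 23.0%. ENSG00000276988, annotated as a copy of SRP RNA in an intron of METTL2B, had 0.79, 0.637, 0.866 and 0.838 CPM in the combination, 0.117, 0.133, 0.146 and 0.217 CPM in alectinib, 0.564, 0.523, 0.595 and 0.805 CPM in indisulam, and 0.122, 0.0719, 0.125 and 0.0696 CPM in DMSO. Every combination and indisulam library was above every alectinib and DMSO library. None of its DMSO libraries reached the filter level of 0.17 CPM. It rose by 2.99 ± 0.35 in the combination (adjusted p = 1.03e-07) and by 2.66 ± 0.35 in indisulam (adjusted p = 1.44e-06), and the value of 0.64 ± 0.39 in alectinib was not called. METTL2B itself, on the opposite strand, had a value of 0.04 in the combination, which was not called, and fell by 0.22 in indisulam.

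RN7SL336P, a 7SL copy in no other gene (chr6:89090946-89091242, plus strand), was higher in each treatment. It had 1.83, 0.832, 1.58 and 0.873 CPM in the combination, 0.659, 0.58, 0.391 and 0.45 CPM in alectinib, 0.338, 0.414, 0.644 and 0.532 CPM in indisulam, and 0.192, 0.234, 0.125 and 0.191 CPM in DMSO. The combination lay above both single drugs, and these lay above DMSO without overlap. The log2 fold changes were 2.77 ± 0.34 in the combination (adjusted p = 1.86e-07), 1.49 ± 0.35 in alectinib (adjusted p = 0.00324) and 1.37 ± 0.35 in indisulam (adjusted p = 0.00258). Its interaction was -0.09 ± 0.43 and was not called.

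Other named 7SL copies differed in the treatments in which they were called. RN7SL833P, in an intron of ECSIT, averaged 0.963 ± 0.207 CPM in the combination, 0.0938 ± 0.0729 in alectinib, 1.02 ± 0.143 in indisulam and 0.18 ± 0.116 in DMSO (SD, n = 4 each). Its combination libraries lay above all alectinib libraries, and it was higher there by 3.25 ± 0.43 (adjusted p = 7.74e-07). RN7SL388P, in an intron of PIN4, rose in all 3 treatments, by 2.21 ± 0.48 in the combination (adjusted p = 3.42e-04), 1.67 ± 0.48 in alectinib (adjusted p = 0.0147) and 2.25 ± 0.48 in indisulam (adjusted p = 4.35e-04). Without alectinib replicate 1 its value in alectinib was 1.48 (adjusted p = 0.054). RN7SL262P, in no other gene, rose by 2.02 ± 0.62 in alectinib (adjusted p = 0.0211), where replicate 3 stood at 0.781 CPM and the others between 0.166 and 0.298 CPM. Without alectinib replicate 3 its value was 1.44 (adjusted p = 0.137), and the call was also lost without DMSO replicate 1 or 2. Over all libraries RN7SL388P averaged 0.273 CPM and RN7SL262P 0.212 CPM, little above the filter level of 0.17 CPM. Treated libraries may therefore have carried both past the filter. RN7SL104P, in no other gene, was lower by 0.81 ± 0.32 on the log2 scale in the combination (adjusted p = 0.0304), a call lost without DMSO replicate 1 or 4 or combination replicate 3 or 4, at values down to -0.68, and also with no filter and with upper-quartile scaling. Its values of -0.48 in alectinib and -0.16 in indisulam were not called.

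ENSG00000277740, annotated as an SRP RNA copy in an intron of AC079089.1 (chr8:69851148-69851436, minus strand), moved in opposite directions with the 2 drugs. It had 2.30, 1.54, 1.58 and 1.38 CPM in alectinib, 0.661, 0.324, 0.413 and 0.435 CPM in indisulam, and 1.06, 0.701, 0.961 and 0.835 CPM in DMSO. The alectinib libraries were all above DMSO and the indisulam libraries all below it. It rose by 0.94 ± 0.23 in alectinib (adjusted p = 0.00511) and fell by 0.95 ± 0.25 in indisulam (adjusted p = 0.00337). In the combination it had 0.562, 0.797, 0.766 and 0.698 CPM, a change of -0.33 ± 0.24 that was not called. Against alectinib the combination was lower by 1.27 ± 0.24 on the log2 scale (adjusted p = 7.31e-05). AC079089.1, on the opposite strand, rose by 0.53 in alectinib (adjusted p = 0.00427) and fell by 0.37 in the combination (adjusted p = 0.0185), and its value of 0.02 in indisulam was not called.

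Among spliceosomal families, U6 copies were the most numerous. Of 59 tested U6 members, 18 were higher and 3 lower in the combination, 2 and 0 in alectinib, and 18 and 2 in indisulam, with median log2 fold changes of 0.57, 0.14 and 0.78. The share called higher was 30.5% in the combination, near the 29.7% of all tested genes, 3.39% in alectinib, against 9.99%, and 30.5% in indisulam, against 23.0%. ENSG00000283418, whose sequence is given above, had 1.05, 1.45, 1.35 and 0.646 CPM in the combination, 0.394, 0.381, 0.309 and 0.404 CPM in alectinib, 0.58, 0.847, 0.908 and 0.709 CPM in indisulam, and 0.0174, 0.198, 0.196 and 0.104 CPM in DMSO. Each treatment was above DMSO without overlap. The log2 fold changes were 3.11 ± 0.40 in the combination (adjusted p = 3.4e-07), 1.52 ± 0.42 in alectinib (adjusted p = 0.00994) and 2.55 ± 0.40 in indisulam (adjusted p = 1.37e-05). Its host COPB2, a coat protein gene of the Golgi, had values of -0.34, -0.05 and -0.64, of which that in alectinib was not called.

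RNU6-341P rose by 3.15 ± 0.75 in the combination (adjusted p = 8.97e-04) and by 3.46 ± 0.74 in indisulam (adjusted p = 4.91e-04). Its levels were 0.579, 0.106, 0.366 and 0.262 CPM in the combination, 0.419, 0.234, 0.347 and 0.628 CPM in indisulam, and 0.0697, 0.018, 0.0534 and 0 CPM in DMSO. Both treatments lay above DMSO, the combination only narrowly through replicate 2. PSMA3-AS1, its host, rose by 0.35 in the combination (adjusted p = 0.00111), and its value of 0.09 in indisulam was not called. RNU6-431P, in an intron of OSTC, averaged 0.48 ± 0.187 CPM in the combination, 0.489 ± 0.236 in indisulam and 0.0618 ± 0.0227 in DMSO (SD, n = 4 each), and its log2 fold changes were 2.92 ± 0.52 and 2.95 ± 0.52 (adjusted p = 3.76e-05 and 5.67e-05). For both RNU6-341P and RNU6-431P, no DMSO library reached the filter level of 0.17 CPM.

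A smaller set of U6 copies fell. RNU6-850P, in an intron of MSH5 on the opposite strand, had 0.123, 0.0531, 0.233 and 0.105 CPM in the combination, 0.617, 0.282, 0.553 and 0.497 CPM in alectinib, 0.403, 0.27, 0.231 and 0.177 CPM in indisulam, and 0.697, 0.378, 0.392 and 0.435 CPM in DMSO. The combination lay below alectinib and below DMSO without overlap, and indisulam overlapped with DMSO. It fell by 1.86 ± 0.43 in the combination (adjusted p = 6.98e-04), and its host MSH5, a meiotic recombination gene, fell by 1.77 (adjusted p = 6.33e-08). RNU6-322P, in no other gene, had 0.193, 0.106, 0.333 and 0.0698 CPM in the combination, 0.145, 0.0901, 0.182 and 0.226 CPM in indisulam, and 0.627, 0.467, 0.587 and 0.418 CPM in DMSO. Both treatments were below DMSO without overlap, with falls of 1.56 ± 0.45 in the combination (adjusted p = 0.00426) and 1.69 ± 0.45 in indisulam (adjusted p = 0.00336), and alectinib had a value of -0.20 ± 0.41.

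The U2 copies had the highest family median in the combination among families with at least 5 tested members. Of 8 tested, 5 were higher and 1 lower in the combination, 2 and 0 in alectinib, and 3 and 0 in indisulam, with medians of 2.07, 0.76 and 1.36. The shares called higher were 62.5%, 25% and 37.5%, against 29.7%, 9.99% and 23.0% of all tested genes. The share called lower in the combination was 12.5%, against 30.6%. These shares rest on 8 members. RNU2-37P had 0.649, 0.46, 0.466 and 0.524 CPM in the combination, 0.0851, 0.149, 0.26 and 0.171 CPM in alectinib, 0.548, 0.613, 0.843 and 0.66 CPM in indisulam, and 0.174, 0.0539, 0.0534 and 0.0696 CPM in DMSO. The combination and indisulam libraries were above all others. It rose by 2.55 ± 0.43 in the combination (adjusted p = 1.78e-05) and by 2.89 ± 0.43 in indisulam (adjusted p = 5.56e-06), while RUVBL1, the ATPase gene that contains it on the same strand, had values of 0.36, which was called, and 0.09, which was not. RNU2-46P, in an intron of LINC00476, averaged 0.97 ± 0.325 CPM in the combination, 0.418 ± 0.0926 in alectinib, 0.523 ± 0.182 in indisulam and 0.177 ± 0.0676 in DMSO (SD, n = 4 each). All 3 treatments were above DMSO without overlap, by 2.44 ± 0.36, 1.23 ± 0.37 and 1.56 ± 0.37 (adjusted p = 3.17e-06, 0.0189 and 0.00131). The alectinib call was lost without DMSO replicate 1 (adjusted p = 0.0659) or alectinib replicate 2 (adjusted p = 0.0521). LINC00476, on the opposite strand, rose by 0.94 in the combination (adjusted p = 6.92e-07) and by 0.73 in alectinib (adjusted p = 1.91e-04), and its value of 0.21 in indisulam was not called.

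The other small nuclear families were small. Of 5 tested U1 members, 2 were higher in the combination and 2 in indisulam, and of 4 tested U4 members, 1 and 2. The 5 tested U7 members had 2 higher in the combination and 3 in indisulam, and none of these families had a member called in alectinib. Among the minor spliceosome copies, 1 of 2 tested U6atac members was lower in the combination and 1 in indisulam, and the 1 tested U4atac member was higher in the combination. The 1 tested U5 copy was lower in indisulam. Of all tested genes, 29.7% were higher and 30.6% lower in the combination, 9.99% and 12.3% in alectinib, and 23.0% and 24.8% in indisulam. With at most 5 tested members in each of these families, their counts are too small to set beside those shares.

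Y RNA copies resembled the U6 copies in their counts. Of 55 tested, 18 were higher and 1 lower in the combination, 2 and 0 in alectinib, and 17 and 0 in indisulam, with medians of 0.54, 0.29 and 0.60. The share called higher was 32.7% in the combination, close to the 29.7% of all tested genes, 3.64% in alectinib, against 9.99%, and 30.9% in indisulam, against 23.0%. ENSG00000252652, whose sequence is given above, had 2.05, 1.98, 1.67 and 1.61 CPM in the combination, 0.255, 0.182, 0.212 and 0.0932 CPM in alectinib, 0.902, 0.613, 1.02 and 0.805 CPM in indisulam, and 0.0348, 0.018, 0.107 and 0.104 CPM in DMSO. The combination lay above indisulam, indisulam above alectinib, and alectinib overlapped with DMSO through its replicate 4. No DMSO library reached the filter level of 0.17 CPM. The log2 fold changes were 4.75 ± 0.38 in the combination (adjusted p = 1.44e-10), 1.49 ± 0.44 in alectinib (adjusted p = 0.0167) and 3.62 ± 0.39 in indisulam (adjusted p = 5.11e-08). In alectinib the call was lost without DMSO replicate 1 or 2 or alectinib replicate 1, at values of 1.18 to 1.28. The combination exceeded alectinib by 3.26 ± 0.32 (adjusted p = 6.88e-09) and indisulam by 1.12 ± 0.28 (adjusted p = 0.00233). Its host API5, an apoptosis inhibitor gene on the same strand, had smaller changes of 0.48, -0.18 and 0.39.

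ENSG00000207525 averaged 0.491 ± 0.176 CPM in the combination, 0.0659 ± 0.0647 in alectinib, 0.494 ± 0.136 in indisulam and 0.0572 ± 0.0161 in DMSO (SD, n = 4 each). None of its DMSO libraries reached the filter level of 0.17 CPM. It rose by 3.05 ± 0.58 in the combination and 3.07 ± 0.58 in indisulam (adjusted p = 8.18e-05 and 1.29e-04), where its host GLG1, a Golgi glycoprotein gene, fell by 0.89 and 0.50. ENSG00000201207, in an intron of GPANK1 on the opposite strand, fell by 2.11 ± 0.50 in the combination (adjusted p = 8.67e-04), with 0.0527 to 0.124 CPM in the combination and 0.214 to 0.47 CPM in DMSO. ENSG00000200090, which shares an exon with FNBP4, was lower in the combination than in alectinib by 0.91 ± 0.29 on the log2 scale (adjusted p = 0.011), without overlap.

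**Figure D3:**
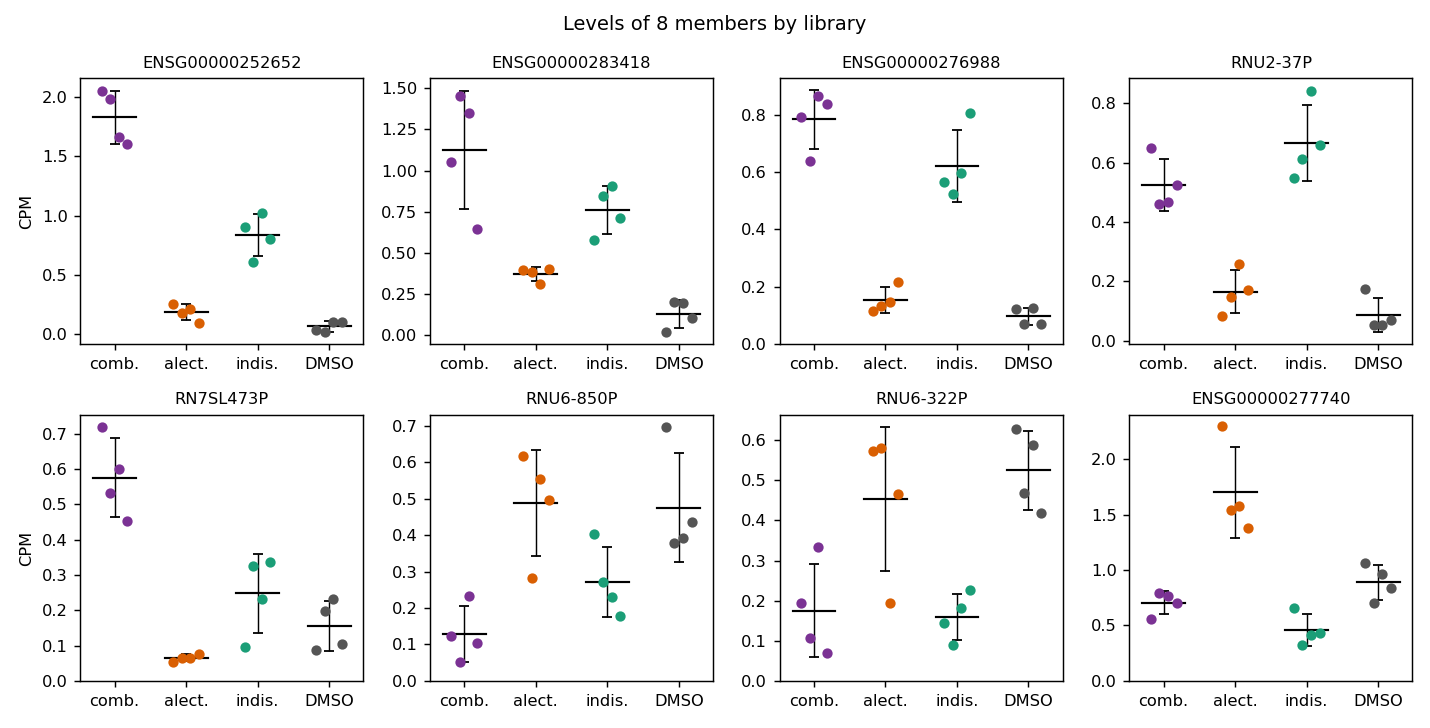
CPM of 8 named members in each library, with the mean of a condition as a bar and its SD as an error bar (n = 4). ENSG00000252652 lies at 1.61 to 2.05 CPM in the combination and at most 0.107 CPM in DMSO; RNU6-850P and RNU6-322P lie lower in the combination than in DMSO, and ENSG00000277740 lies higher in alectinib.

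Copies of 7SK were mixed. Of 12 tested, 3 were higher and 1 lower in the combination, 1 and 0 in alectinib, and 4 and 1 in indisulam. The shares called higher were 25%, 8.33% and 33.3%, against 29.7%, 9.99% and 23.0% of all tested genes. Those called lower were 8.33%, 0% and 8.33%, against 30.6%, 12.3% and 24.8%. RN7SKP80, in an intron of the pseudogene RRP7BP on the same strand, had 2.07, 1.56, 2.10 and 1.97 CPM in the combination, 2.45, 2.48, 3.26 and 2.66 CPM in alectinib, 1.45, 1.57, 1.35 and 1.19 CPM in indisulam, and 2.11, 1.64, 1.74 and 1.90 CPM in DMSO. Alectinib lay above DMSO and indisulam below it without overlap. The log2 values were 0.55 ± 0.16 in alectinib (adjusted p = 0.0157) and -0.41 ± 0.17 in indisulam (adjusted p = 0.0471). The alectinib call was lost without DMSO replicate 2 or alectinib replicate 3 (adjusted p = 0.0569 and 0.0736), and with no expression filter. The indisulam call was lost in 11 of the 16 fits that left out a library, those without DMSO replicate 1, 3 or 4, alectinib replicate 1, 2 or 4, combination replicate 3 or 4, or indisulam replicate 1, 3 or 4. It was also lost in 4 of the 8 other alternatives, with adjusted p up to 0.165. RN7SKP74, in an intron of ZNF133, rose by 1.37 ± 0.32 in indisulam (adjusted p = 0.00114), with 0.667 to 0.925 CPM in indisulam and 0.209 to 0.392 CPM in DMSO. RN7SKP87, in an intron of CAVIN4, averaged 0.293 ± 0.147 CPM in the combination and 0.552 ± 0.152 CPM in DMSO (SD, n = 4 each), a value of -0.91 ± 0.35 (adjusted p = 0.0269) whose call was lost without DMSO replicate 1 or 2 or combination replicate 2 or 4, with no filter, and with upper-quartile scaling. CAVIN4, on the opposite strand, fell by 1.40 in the combination (adjusted p = 2.32e-11).

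Members outside the families listed above included 3 neighbours on chromosome 2 with no role annotated in the sources used here. ENSG00000274520 (chr2:44932320-44932406, plus strand), ENSG00000277311 (chr2:44934055-44934271, plus strand) and ENSG00000276048 (chr2:44937426-44937696, plus strand) lie in introns of the noncoding gene LINC01833 on the opposite strand. ENSG00000277311 had 3.00, 2.43, 2.80 and 2.62 CPM in the combination, 2.25, 1.54, 3.13 and 1.96 CPM in alectinib, 5.20, 4.07, 5.09 and 3.30 CPM in indisulam, and 2.33, 2.32, 1.90 and 2.54 CPM in DMSO. Indisulam lay above all other conditions without overlap. It rose by 0.96 ± 0.19 in indisulam (adjusted p = 1.78e-04) and was lower in the combination than in indisulam by 0.70 ± 0.18 on the log2 scale (adjusted p = 0.0039).

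ENSG00000274520 had 2.04, 1.31, 1.97 and 1.34 CPM in the combination, 1.33, 1.52, 2.02 and 1.44 CPM in alectinib, 3.74, 2.83, 2.99 and 2.69 CPM in indisulam, and 1.32, 1.01, 1.07 and 1.74 CPM in DMSO. Its indisulam libraries lay above all others. It rose by 1.25 ± 0.21 in indisulam (adjusted p = 2.51e-05), and the combination was below indisulam by 0.88 ± 0.20 (log2, adjusted p = 0.00133). ENSG00000276048 was higher in indisulam by 0.60 ± 0.23 (adjusted p = 0.0378), a call lost without DMSO replicate 1, 3 or 4 or indisulam replicate 1, at values down to 0.37. LINC01833 fell by 1.61 in the combination (adjusted p = 1.06e-09) and by 0.81 in indisulam (adjusted p = 4.07e-05), and its value in alectinib was -0.36 (adjusted p = 0.0604).

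**Figure D4:**
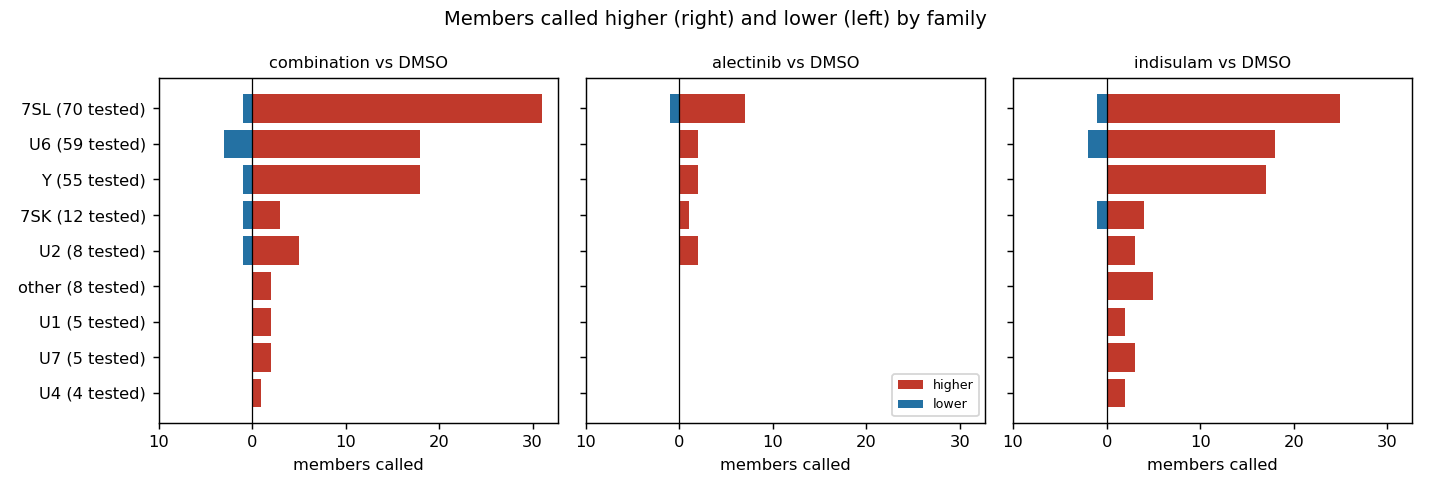
Members called higher (bars to the right, red) and lower (bars to the left, blue) against DMSO by family, for the combination, alectinib and indisulam; the number tested stands beside each family and families with under 4 tested members are left out. Higher calls outnumber lower ones in the 7SL, U6 and Y families in the combination and indisulam, with 31, 18 and 18 in the combination.

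The combination was also compared directly with each single drug. Against alectinib, 67 members (29.0%) were higher and 10 (4.3%) lower in the combination, where 26.5% of all tested genes were higher and 29.0% lower. The share called higher was near that of all genes, and the share called lower was below it. The median log2 fold change of members was 0.40, against -0.04 for all genes. Against indisulam, 11 members (4.8%) were higher and 7 (3.0%) lower, where 18.9% of all tested genes were higher and 20.1% lower. Both shares were below those of all genes, and the median was 0.01, as for all genes. The largest rises over indisulam were those of RN7SL336P (1.40 ± 0.30, adjusted p = 7.35e-04), RN7SL521P (1.36 ± 0.45, adjusted p = 0.0189) and RN7SL473P (1.22 ± 0.41, adjusted p = 0.0224). RN7SL521P, in an intron of ZNF425, lost the call without combination replicate 4 or indisulam replicate 2, and RN7SL473P without combination replicate 1 or indisulam replicate 1 or 3, and both lost it with no expression filter. RN7SKP87 (-0.92 ± 0.34, adjusted p = 0.037) and RN7SKP74 (-0.81 ± 0.31, adjusted p = 0.0405) were lower than in indisulam. The call for RN7SKP87 was lost without combination replicate 2 or 4 or indisulam replicate 1, 2 or 4, and that for RN7SKP74 without combination replicate 1, 2 or 4 or indisulam replicate 1 or 3. Both were also lost with no expression filter and with upper-quartile scaling.

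The interaction was called for 5 members, 3 higher (1.3%) and 2 lower (0.9%), where 6.85% of all tested genes were higher and 6.63% lower. The 2 lower calls numbered 5 without alectinib replicate 2 and 1 without DMSO replicate 4. The median interaction over the members was -0.32, against -0.02 over all tested genes. RN7SL473P, a 7SL copy in an intron of ADAMTSL4-AS1 on the same strand, had 0.72, 0.531, 0.60 and 0.454 CPM in the combination, 0.0532, 0.0663, 0.0651 and 0.0776 CPM in alectinib, 0.0967, 0.324, 0.231 and 0.338 CPM in indisulam, and 0.0871, 0.198, 0.231 and 0.104 CPM in DMSO. The combination was above all other conditions, and alectinib below DMSO, without overlap. Its interaction was 2.44 ± 0.65 (adjusted p = 0.0148), and that of its host was 1.19 (adjusted p = 0.0383). The negative interactions were those of ENSG00000274520 (-1.17 ± 0.29, adjusted p = 0.00952) and RN7SKP74 (-1.42 ± 0.45, adjusted p = 0.0377), the second of which lost its call in 9 of the 16 fits that left out a library. These were the fits without DMSO replicate 1 or 4, alectinib replicate 1 or 3, combination replicate 1, 2 or 4, or indisulam replicate 1 or 3. It was also lost with no expression filter.

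Intronic members are described beside the genes that contain them, with no test, since the expression filter and the mean of 5 both let in members that were high in treated libraries. For 191 tested members in introns whose host was tested, the member's log2 fold change was above the host's in 154 pairs in the combination, 129 in alectinib and 148 in indisulam. Median values of member and host were 0.56 and -0.20 in the combination, 0.25 and -0.04 in alectinib, and 0.72 and -0.07 in indisulam. With no expression filter, the member was above the host in 200 of 254 pairs in the combination, 166 in alectinib and 198 in indisulam, with medians of 0.54 and -0.23, 0.24 and -0.04, and 0.71 and -0.09. Among the 191 pairs with a tested host, 66 members were called higher in the combination. Their host was higher for 24, lower for 28 and not called for 14, where 29.7% of all tested genes were higher and 30.6% lower. In indisulam 66 members of these pairs were called higher. Their host was higher for 16, lower for 26 and not called for 24, where 23.0% of all tested genes were higher and 24.8% lower. Pearson's r between member and host changes, across the 191 pairs, was 0.20 in the combination, 0.18 in alectinib and 0.03 in indisulam, as a description, since pairs come from the same libraries, some share a host, and their reads can overlap. The share of member reads that came from host introns was not tested. Members on the same strand as the host had medians of 0.75 in the combination and 0.86 in indisulam over 120 pairs. Those on the opposite strand had 0.44 and 0.66 over 71 pairs.

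**Figure D5:**
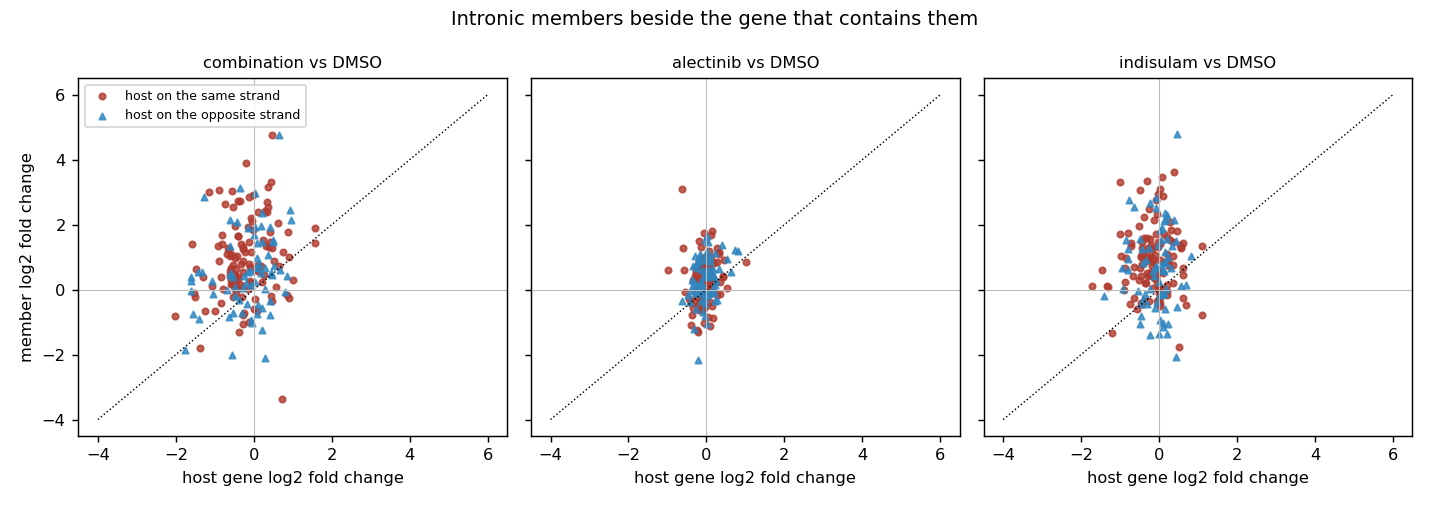
Log2 fold change against DMSO of each intronic member (vertical axis) beside that of the gene that contains it (horizontal axis), for 191 pairs in the combination, alectinib and indisulam; circles have the host on the same strand, triangles on the opposite strand, and the dotted line marks equal change. Most points lie above the line, 154 of 191 in the combination.

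Higher calls outnumbered lower ones outside introns as well. Of 31 tested members in no other gene, 11 were higher and 2 lower in the combination, 3 and 1 in alectinib, and 9 and 1 in indisulam. The shares called higher were 35.5%, 9.68% and 29%, against 29.7%, 9.99% and 23.0% of all tested genes. Those called lower were 6.45%, 3.23% and 3.23%, against 30.6%, 12.3% and 24.8%. Of 124 tested in introns of same-strand genes, 49 were higher and 2 lower in the combination, 6 and 0 in alectinib, and 43 and 2 in indisulam. Their shares were 39.5%, 4.84% and 34.7% higher, and 1.61%, 0% and 1.61% lower. The 69 tested in introns of opposite-strand genes had 19 higher and 4 lower in the combination, 5 and 0 in alectinib, and 23 and 3 in indisulam. Their shares were 27.5%, 7.25% and 33.3% higher, and 5.8%, 0% and 4.35% lower. Of the 7 tested that share an exon on the same strand, 4 were higher in the combination and 4 in indisulam, 57.1% each. The differences between positions were not tested.

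The mRNAs of proteins that bind, build or process these RNAs were read from fixed lists, all of whose genes were found and tested. The Sm core list held genes of the ring bound to spliceosomal snRNAs and also SNRPB2, a U2 protein gene outside the ring. Of its 9 genes, 8 were higher in the combination, 0 in alectinib and 7 in indisulam. SNRPE averaged 199.75 ± 11.88 CPM in the combination, 112.79 ± 12.36 in alectinib, 157.82 ± 6.14 in indisulam and 118.7 ± 5.03 in DMSO (SD, n = 4 each), a change of 0.75 ± 0.07 in the combination (adjusted p = 1.62e-09). Of 13 proteins specific to single snRNPs, 7 were higher and 4 lower in the combination, 3 and 2 in alectinib, and 6 and 3 in indisulam. PRPF3, of the U4/U6 particle, rose by 2.00 ± 0.06 in the combination, and EFTUD2, the U5 GTPase, fell by 1.32 ± 0.06. Of 10 U6 LSm and assembly genes, 5 were higher and 0 lower in the combination, 1 and 3 in alectinib, and 4 and 0 in indisulam. Among them METTL16, the U6 methyltransferase, rose by 1.05 ± 0.06 in the combination.

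Of 10 genes of the SMN complex, which loads Sm rings, 5 were higher and 3 lower in the combination, 1 and 1 in alectinib, and 3 and 1 in indisulam. SMN1 and SMN2 are near-identical, so the counts of each are uncertain. Of 10 minor spliceosome and U7 proteins, 5 were higher and 1 lower in the combination, 1 and 0 in alectinib, and 3 and 2 in indisulam. The 7SK particle and P-TEFb had 3 higher and 2 lower of 7 in the combination, 2 and 1 in alectinib, and 2 and 1 in indisulam. CCNT1, the cyclin T1 of P-TEFb, rose by 1.22 ± 0.06 in the combination, and CDK9, its kinase, fell by 0.95 ± 0.11. Ro and La had 1 of 2 higher in the combination and 2 of 2 in indisulam, with none called in alectinib.

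The SRP list had 6 higher and 2 lower of 8 genes in the combination, 0 and 1 in alectinib, and 5 and 2 in indisulam. SRP19 rose by 1.43 ± 0.09 in the combination, and SRP72 fell by 1.69 ± 0.08 in the combination, by 0.23 ± 0.08 in alectinib and by 1.87 ± 0.08 in indisulam. Of 11 snRNA promoter factors, 5 were higher and 0 lower in the combination, 0 and 0 in alectinib, and 4 and 0 in indisulam. BRF2, the TFIIIB subunit used at U6-type promoters, rose by 1.67 ± 0.13 in the combination. Integrator, which cuts the 3′ ends of snRNA precursors, had 2 higher and 8 lower of 14 in the combination, 1 and 0 in alectinib, and 4 and 7 in indisulam. INTS10 fell by 0.82 ± 0.06 in the combination and by 0.69 ± 0.06 in indisulam. Of 16 genes of snRNA 3′ end trimming and nuclear decay, 4 were higher and 9 lower in the combination, 0 and 2 in alectinib, and 3 and 6 in indisulam. EXOSC10, a nuclear exosome nuclease, fell by 1.42 ± 0.07 in the combination, 0.35 ± 0.07 in alectinib and 0.99 ± 0.07 in indisulam. Against the background of all tested genes given above, these list counts are descriptions, and their relation to the members' levels was not tested.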

How the data were processed

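The authors deposited a table of raw gene counts for 16 IMR32 libraries, 4 for each of the combination, alectinib, indisulam and DMSO. Per the labels, polyadenylated RNA was sequenced in pairs of 150 bp reads. Per the submitters' processing notes, FastQC 0.11.9, Trimmomatic 0.39, HISAT2 2.2.1, featureCounts 2.0.1 and GRCh38 were used. The strand setting, the treatment of reads that match several places and the feature counted were not stated there. Positions, hosts and sequences come from GENCODE 29, whose coordinates equal those of all 58735 genes in the table.

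Counts were tested with the quasi-likelihood test of edgeR 4.0.16 in R 4.3.3, with TMM scaling, filterByExpr, 1 model of all 16 libraries, and Benjamini-Hochberg adjustment over the 22433 genes that passed. It had 12 residual degrees of freedom. A call is an adjusted p under 0.05. CPM use TMM library sizes. DESeq2 1.42.0, other scalings and filters, a replicate block, members with a mean of at least 20, members that share no exon, and leaving out each library were the alternatives. The script was tested on simulated data.

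Named members were the functional genes, the 8 with the highest mean CPM, and the called members with the largest changes in each comparison, without overlap of the groups (a condition not set for the interaction) and at a mean of at least 0.2 CPM. Hosts of named members and up to 4 genes of each partner list, in order of p, were named too. RN7SL152P was named after its values were seen. Some sequences are not reported here. The members and lists were chosen with earlier results of these data known.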

Additional observations from a re-analysis of the deposited data

Results flagged for a closer look

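In 5 of 140 groups of 4 libraries, over 35 named members, a single library stood far from the other libraries of its condition. Chance gives about 1 in 20 such groups, and 5 of 140 is not more than that. RN7SL2 in combination replicate 4, described above as far above the rest, was not among the 5. RN7SL3 had 2.77 CPM in alectinib replicate 2, where the other alectinib libraries had 2.17 to 2.25 CPM, and 5.73 CPM in DMSO replicate 2, where the others had 3.60 to 3.76 CPM. RN7SL4P had 10.7 CPM in alectinib replicate 2 and 5.14 to 5.63 CPM in the others. RN7SL5P had 0.211 CPM in combination replicate 1 and 4.68 to 5.08 CPM in the others. RNU2-37P had 0.174 CPM in DMSO replicate 1 and 0.0534 to 0.0696 CPM in the others.

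For 5 members the change in the combination differed from both single-drug changes added together, by the interaction term of the edgeR model. The log2 interaction was 1.26 for RN7SL2 (adjusted p = 0.0113), 1.18 for RN7SL3 (adjusted p = 0.00601) and 2.44 for RN7SL473P (adjusted p = 0.0148). It was -1.17 for ENSG00000274520 (adjusted p = 0.00952) and -1.42 for RN7SKP74 (adjusted p = 0.0377).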

How the results depend on the processing

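Of 83 called values of named members, 59 kept their call under every alternative that gave them a value, 24 lost it under at least 1, and 0 reversed. All 24 alternatives gave a value for 27 of the 83, and the other 56 had at least 21. Depth limits what can be seen: 137 of the 303 members had a mean under 10 counts. Upper-quartile scaling moved the median log2 fold change of all genes in the combination against DMSO to 0.13, from 0.01 with TMM, and the members' median above it was 0.64 and 0.63. The causes of the shifts below were not tested. The stricter rules left fewer members, so their counts cannot be read as losses beside those of the main fit. The share of all genes called with the filter of 1 CPM is not given here.

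With a filter of 1 CPM in 4 libraries, the members called higher and lower were 9 and 0 in the combination and 9 and 2 in indisulam, with a median of 0.52 in indisulam, and 3 were higher in alectinib. The combination then had 6 and 3 against indisulam and 7 and 3 against alectinib, and 1 negative interaction. Among the 64 members with a mean count of at least 20, the calls were 27 and 4 in the combination and 32 and 3 in indisulam, with a median of 0.86 in indisulam. They come from the main fit, where 29.7% and 30.6% of all tested genes were called in the combination and 23.0% and 24.8% in indisulam. Of the same 64, 9 were higher in alectinib, against 9.99% of all tested genes. In the combination 7 were higher than in indisulam, against 18.9%. Set against alectinib, 26 were higher and 6 lower in the combination, where 26.5% and 29.0% of all tested genes were called. With no expression filter, 4 were lower in alectinib, 7 were higher in the combination than in indisulam, and 1 interaction was negative. With upper-quartile scaling, 4 were lower in the combination than in indisulam.

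Leaving out 1 library gave 75 to 88 higher and 8 to 12 lower in the combination, 8 to 14 and 1 to 2 in alectinib, and 70 to 84 and 4 to 11 in indisulam. Against indisulam the combination had 8 to 13 and 5 to 9, and against alectinib 58 to 69 and 8 to 15. Positive interactions numbered 3 to 4 and negative ones 1 to 5.

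Replicate numbers were not taken as pairs: over 24 same-numbered pairs the correlation of deviations from the group means was -0.063 to 0.168 (median 0.049, against -0.0105 for other numbers), with 5 over 0.1. All 6 pairs of replicate 1 and all 6 of replicate 2 were above 0, with 2 of 6 for replicate 3 and 4 of 6 for replicate 4. The replicate block gave 82 and 9 calls in the combination, 14 and 1 in alectinib and 79 and 4 in indisulam. Of the named calls, it lost that of RN7SKP80 in indisulam (adjusted p = 0.0534).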
